A study of Mus musculus with 6 samples.

Results

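The genes of interferon signalling and the genes that interferons induce were examined in Met-1 TripZ-200c cells without or with Dox. The set was a list of 43 gene symbols, 15 for receptors, kinases and transcription factors and 28 for interferon stimulated genes. It was matched by symbol to the deposited expression table of 43548 genes, and where a symbol was repeated the row with the highest mean was used. 42 of the 43 were matched, and Irf8 was not analysed here. Of the 42, 27 averaged 1 FPKM or more in the 6 libraries together, and these 27 were tested. FPKM is a count of fragments scaled by transcript length and by the mapped fragments of the library.

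Met-1 is a mouse mammary carcinoma line from a late-stage tumour of the MMTV-PyMT model in the FVB/NJ strain, and it has lost much of its epithelial character. In Met-1 TripZ-200c cells a lentiviral TripZ vector makes miR-200c in the presence of doxycycline (Dox). These cells are a single clone, chosen for tight induction of the vector. Both groups carry the vector. 3 libraries came from cells given vehicle for 48 h and 3 from cells given 1 µg/mL Dox for 48 h. No cells with the empty vector are among these samples, so an effect of Dox itself and an effect of miR-200c cannot be told apart. All libraries come from the same clone, and the labels do not say that the replicates came from separate experiments. The p-values measure the spread between these libraries, which may be technical.

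Interferons are secreted proteins that alert cells to viruses and other microbes and that shape antitumour immunity. Type I interferons bind a receptor of IFNAR1 and IFNAR2, which signals through the kinases JAK1 and TYK2 to a complex that holds STAT2 and IRF9. This complex binds the interferon stimulated response element (ISRE). Interferon gamma binds IFNGR1 and IFNGR2 and signals through JAK1 and JAK2 to genes that hold the gamma activated site (GAS). The genes switched on in this way encode antiviral proteins, RNA sensors, GTPases that attack vacuoles of intracellular microbes, and chemokines. MiR-200c is a microRNA that holds epithelial cells in their state by repressing ZEB1 and ZEB2.

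The sequences on which the genes were compared are shown first, with coordinates of GRCm38.p6, which is not the genome of the FVB/NJ strain. The mature miR-200c-3p is given because it is the molecule that the vector makes. Its seed, bases 2 to 8, is in capitals, and these mature bases lie at chr6:124718324-124718346 on the minus strand. The Ifit2 and Gbp7 3′ UTR stretches are given because they were the members with a match to this seed, and the 7 bases that pair with it are in capitals.
mmu-miR-200c-3p: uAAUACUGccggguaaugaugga
Ifit2 3′ UTR, match at chr19:34574805-34574811, plus strand: gggcttgtttCAGTATTtgtataaagc
Gbp7 3′ UTR, match at chr3:142548698-142548704, plus strand: caacatatttCAGTATTatacaatcca

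The match was at base 331 of the Ifit2 3′ UTR of 1945 bases. Among the 27 tested members Ifit2 was the single gene with such a match in its longest annotated 3′ UTR, or 3.7%, beside 1737 of 10798 tested genes with a 3′ UTR, or 16.1%. Gbp7, at base 2124, was under the filter. Zeb2, a known target, had 5 matches. A match is a description of letters and not a shown target site.

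Promoter stretches of 300 bases, 250 before and 50 after the start, are shown for the 4 genes that passed the test and held an ISRE core, so that the motif can be seen beside the direction of each gene. They are from RefSeq, and capitals mark the ISRE core, GAAANNGAAA, searched on both strands.
Isg15 promoter, chr4:156200769-156201068, minus strand: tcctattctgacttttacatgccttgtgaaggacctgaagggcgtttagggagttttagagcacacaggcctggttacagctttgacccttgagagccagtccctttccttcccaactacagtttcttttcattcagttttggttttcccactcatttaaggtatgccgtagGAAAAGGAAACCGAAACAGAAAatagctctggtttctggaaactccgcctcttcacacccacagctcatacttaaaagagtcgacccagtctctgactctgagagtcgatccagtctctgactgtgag
Irgm1 promoter, chr11:48871371-48871670, minus strand: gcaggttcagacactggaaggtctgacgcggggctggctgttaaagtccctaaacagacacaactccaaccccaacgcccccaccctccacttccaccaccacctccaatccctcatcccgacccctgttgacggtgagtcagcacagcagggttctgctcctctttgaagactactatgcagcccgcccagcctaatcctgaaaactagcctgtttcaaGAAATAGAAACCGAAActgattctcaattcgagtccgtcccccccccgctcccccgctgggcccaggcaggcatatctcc
Bst2 promoter, chr8:71537423-71537722, minus strand: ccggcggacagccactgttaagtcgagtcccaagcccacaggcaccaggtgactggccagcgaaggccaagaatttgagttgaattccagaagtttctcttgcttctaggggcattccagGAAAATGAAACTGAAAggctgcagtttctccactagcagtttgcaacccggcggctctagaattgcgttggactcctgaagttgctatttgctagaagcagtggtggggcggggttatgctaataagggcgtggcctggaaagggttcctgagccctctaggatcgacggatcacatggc
Irf2 promoter, chr8:46739495-46739794, plus strand: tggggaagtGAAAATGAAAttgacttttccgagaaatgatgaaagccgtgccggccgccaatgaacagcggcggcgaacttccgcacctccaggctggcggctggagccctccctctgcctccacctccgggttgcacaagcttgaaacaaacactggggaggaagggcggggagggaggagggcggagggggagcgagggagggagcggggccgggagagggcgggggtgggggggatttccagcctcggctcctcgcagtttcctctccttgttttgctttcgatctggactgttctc

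The Isg15 promoter held 3 overlapping ISRE cores in 1 block, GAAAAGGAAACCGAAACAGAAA, from base -78 to -57 relative to the start. Irgm1 held 2 overlapping cores at -30 to -15, Bst2 held 2 at -130 to -115, and Irf2 held 1 at -241 to -232. Of all 32851 promoters listed, 3.44% held the ISRE core. Of the members 35 of 42 had a listed promoter and 7 did not, Gbp8 among the latter. The core was in 16 of 21 induced genes and in 2 of 14 receptors, kinases and factors, Stat2 and Irf2. Ifit2 had no such core in either of its promoters. The GAS core, TTCNNNGAA, which reads the same on both strands, was in 8.30% of all promoters, in 7 of 21 induced genes and in 4 of 14 receptors, kinases and factors.

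Known targets of miR-200c and epithelial genes were read first, as a check of the labels. Zeb2, a repressor of epithelial genes, was at 29.4, 30.7 and 27.9 FPKM in the vehicle libraries and 9.04, 7.82 and 8.0 FPKM in the Dox libraries. Zeb1, its relative, fell from 41.0, 42.1 and 42.3 FPKM to 19.8, 20.3 and 23.6 FPKM. Of the 4 mesenchymal markers Vim was also lower, with a log2 fold change of -0.35. Fn1 was not, at 266 and 260 FPKM without Dox and 276 and 272 FPKM with Dox, with the third replicate missing. The epithelial markers Krt7, Krt18 and Epcam rose. The summed FPKM of the 6 epithelial markers went from a range of 135 to 144 to a range of 644 to 681. Most of this sum was Krt18 and Krt7, while Krt8 and Cldn4 were low, with means of 0.499 and 0.0366 FPKM. Cdh1, the epithelial cadherin, was at 0.0776, 0.0559 and 0.0419 FPKM in the vehicle libraries and 0.554, 0.692 and 1.24 FPKM in the Dox libraries. The row of the miR-200c gene was at 0 in all 6 libraries. By qRT-PCR the study reported much more miR-200c with Dox in these cells. The 0 is therefore not read as absence of the microRNA.

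Summed FPKM ranged from 800267 to 815139 across libraries, and 16867 to 18012 genes were above 0. Depth relative to the first library without Dox was between 0.92 and 1.485, and absolute read numbers are unknown. All 37 mitochondrial genes were listed at 0, so a 0 was read as listed at 0, and fitted changes of genes with such values depend on the pseudocount and are no folds. Of 11 leucocyte markers 10 were matched, and Cd3e, Siglech and Ncr1 were at 0 in every library, while Ptprc was at most 0.161 FPKM. The summed FPKM of the 10 was 27.4 to 34.4 without Dox and 32.8 to 38.6 with Dox, most of it from Cd14 and Cd68, and Cd14 rose by 0.44 on the log2 scale (adjusted p = 0.0171). The 4 fibroblast markers summed to 19.0 to 20.1 FPKM without Dox and to 14.9 to 17.2 FPKM with Dox. Most of this sum was Pdgfra, at 18.8, 18.4 and 18.6 FPKM without Dox and 16.4, 15.6 and 14.4 FPKM with Dox. Its log2 fold change was -0.27 (adjusted p = 0.0410 in limma), while Lum was at 0. The 3 endothelial markers summed to 4.47 to 5.12 FPKM without Dox and to 4.19 to 4.55 FPKM with Dox, most of it from Cdh5. The part of these leucocyte, fibroblast and endothelial markers in the results below was not tested. In bulk RNA fewer cells of a type and less RNA per cell cannot be told apart.

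The level of the pathway differed by role. FPKM is per length, so levels of different genes can be set side by side. All 4 receptor subunits and all 3 kinases were expressed, the receptors between 16.8 FPKM for Ifngr2 and 46.2 FPKM for Ifngr1 and the kinases between 9.09 FPKM for Jak2 and 63.1 FPKM for Jak1. The 7 factors ranged from 0.759 FPKM for Irf5 to 40.0 FPKM for Irf3. The 28 induced genes covered a wide range of levels. Of these, 8 were above 20 FPKM, from Ifi35 to Bst2 at 92.3 FPKM, while 14 were under 1 FPKM and 7 were listed at 0 in at least 1 library. Isg15, at 56.8 FPKM, and Ifit2, at 25.7 FPKM, were among the 8. Mx1 and Mx2, of a family of antiviral GTPases, had means of 0.0249 and 0.167 FPKM, and Mx2 is annotated as a polymorphic pseudogene. The 5 OAS genes, which make or resemble enzymes that make oligoadenylate, lay between 0 for Oas2 and 0.314 FPKM for Oasl1. Rsad2, the antiviral enzyme viperin, was above 0 in 1 library with Dox. Of 18 interferon ligand genes none reached a mean of 1 FPKM, and their sum was 0 to 0.698 FPKM without Dox and 0 to 0.28 FPKM with Dox.

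**Figure D1:**
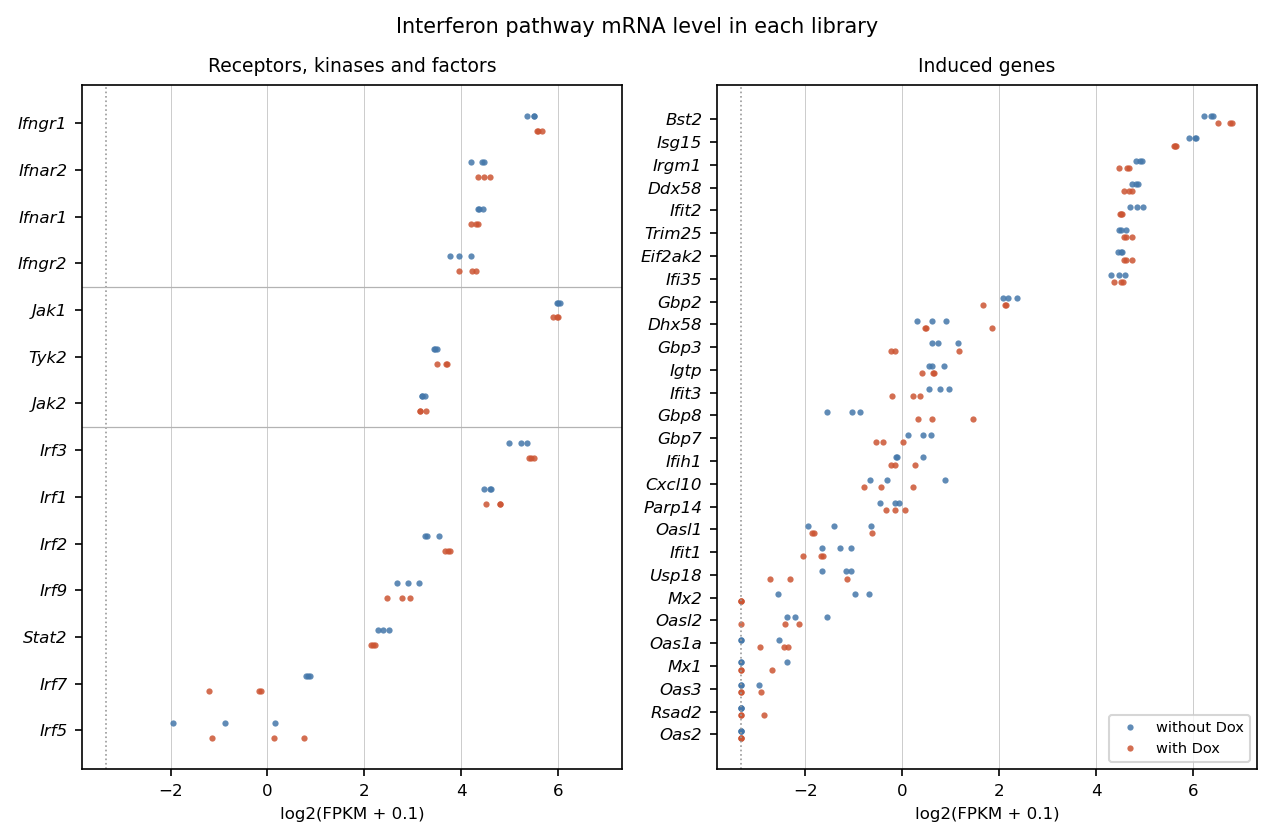
Level of each of the 42 matched genes in each library, on the log2(FPKM + 0.1) scale, with receptors, kinases and factors on the left, separated by grey lines, and induced genes on the right in order of their mean. Blue points are the 3 libraries without Dox, red points the 3 with Dox, and the dotted line marks 0 FPKM; 14 of the 28 induced genes have a mean under 1 FPKM, while the 4 receptors and 3 kinases lie at 9.09 FPKM or above.

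The mRNAs that passed the test with Dox went both ways, and a gene that did not pass is not shown to be unchanged. 6 of the 27 tested genes passed an adjusted p of 0.05 (22.2%), beside 15.0% of all 12879 genes tested. Irf2, Bst2 and Gbp8 were higher with Dox, beside 7.06% of all genes that were higher, and Isg15, Ifit2 and Irgm1 were lower, beside 7.97% of all genes that were lower. Gbp8 reached the mean of 1 FPKM, and so the test, only through the libraries with Dox, where it was high. The fitted log2 fold change was positive in 13 and negative in 14 of the 27, with a median of -0.02 beside a median of 0.00 over all genes. In 20 of the 27 the change was small, with a 95% confidence interval within 1.5-fold either way. In the others the interval went further, and their fitted log2 fold changes ranged from -1.33 for Irf7 to 1.96 for Gbp8. In 14 of the 27 the values of the groups did not overlap, beside 35.0% of 12875 genes with a value in every library. The test was limma on log2(FPKM + 0.1) with Benjamini-Hochberg adjustment over all genes. The calls were close to the threshold: with any 1 library left out, 1 to 3 of the 27 passed, and Isg15 was among them each time. An exact permutation test of 3 libraries against 3 cannot give a p below 0.1 and was not used for single genes.

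**Figure D2:**
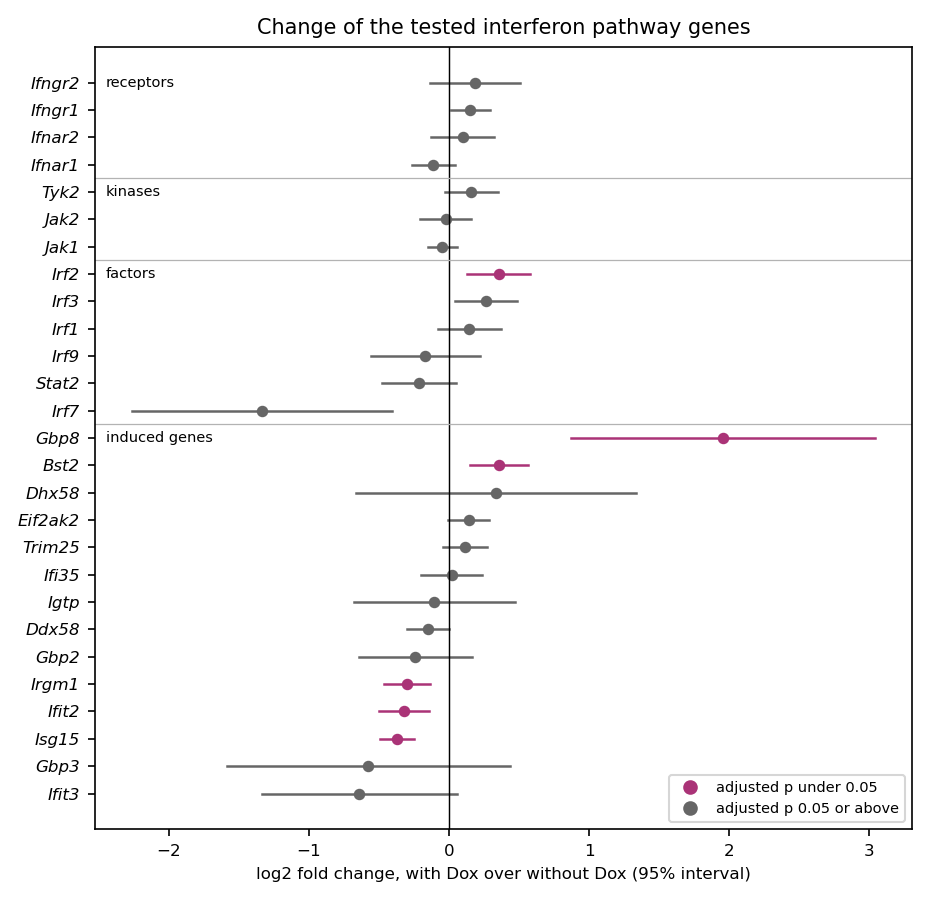
Fitted log2 fold change of each of the 27 tested genes, with Dox over without Dox, on the log2(FPKM + 0.1) scale, with its 95% confidence interval from limma (3 libraries per group). The 6 genes with an adjusted p under 0.05 are in purple, and lie on both sides of 0, from Isg15 at -0.37 to Gbp8 at 1.96.

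Among receptors, kinases and factors 1 of 13 tested genes passed (7.69%, beside 15.0% of all genes), and the median log2 fold change was 0.10. None of the 4 receptor subunits passed, nor any of the 3 kinases. Ifngr1, the subunit that binds interferon gamma, was the most abundant receptor mRNA. It was at 40.7, 45.3 and 45.2 FPKM in the vehicle libraries and 50.8, 48.0 and 46.9 FPKM in the Dox libraries. The groups did not overlap, but the log2 fold change of 0.15 (SE 0.0596) had an adjusted p of 0.142 in limma. The other subunits had log2 fold changes from -0.11 for Ifnar1 to 0.19 for Ifngr2.

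Jak1, the kinase shared by both receptor types, was the most abundant mRNA among the receptors, kinases and factors. It was at 62.6, 63.8 and 65.9 FPKM in the vehicle libraries and 59.5, 64.0 and 62.7 FPKM in the Dox libraries. The groups overlapped, and the log2 fold change of -0.05 had a 95% interval from -0.15 to 0.06. Jak2, the kinase of the interferon gamma receptor, differed by -0.02 and Tyk2, that of the type I receptor, by 0.16, both in log2 and neither past the threshold (adjusted p of 0.880 and 0.241 in limma).

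Irf2 was the one factor that passed. IRF2 binds the same DNA elements as IRF1 and is best known as its antagonist at interferon stimulated genes. Irf2 mRNA was at 11.5, 9.35 and 9.68 FPKM in the vehicle libraries and 13.4, 13.0 and 12.5 FPKM in the Dox libraries. All libraries with Dox were above those without. The mean went from 10.2 ± 1.16 to 13.0 ± 0.460 FPKM (SD, n = 3). The log2 fold change was 0.36 (SE 0.0958), and the adjusted p in limma of 0.0492 was the closest to the threshold of the 6. Over the alternative settings it ranged from 0.0234 to 0.135. Irf2 overlaps 3 genes on the opposite strand, and whether the counting used strand is not given in the sources used here.

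Irf1, the activator counterpart of Irf2, differed by 0.14 in log2 (adjusted p of 0.376 in limma), with groups that overlapped. Irf3, a factor that sensors of infection activate to switch on type I interferon genes, was the most abundant factor mRNA. It was at 40.6, 37.2 and 31.4 FPKM in the vehicle libraries and 43.2, 42.3 and 45.5 FPKM in the Dox libraries. The groups did not overlap, and the log2 fold change of 0.27 (SE 0.0933) had an adjusted p of 0.107 in limma, which did not pass.

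Irf7, the factor that amplifies type I interferon production and is itself induced by interferon, was at 1.63, 1.73 and 1.68 FPKM in the vehicle libraries and 0.331, 0.790 and 0.816 FPKM in the Dox libraries. Every library with Dox was below every library without. The log2 fold change of -1.33 (SE 0.394) had a 95% interval from -2.26 to -0.41 and an adjusted p of 0.0659 in limma, so Irf7 did not pass. It passed with a pseudocount of 1 (adjusted p = 0.0420) and after quantile normalization (adjusted p = 0.0479), and its range over all alternatives was 0.0420 to 0.151. In these same settings Irf2 did not pass. Irf7 reached the mean of 1 FPKM through the libraries without Dox alone.

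The partners of the type I interferon complex, Stat2 and Irf9, had log2 fold changes of -0.21 and -0.17 with adjusted p of 0.265 and 0.563 in limma. Stat2 did not overlap between the groups, at 4.77 to 5.56 FPKM without Dox and 4.30 to 4.55 FPKM with Dox. Irf5 was under the filter, at 0.160 to 1.02 FPKM without Dox and 0.355 to 1.58 FPKM with Dox.

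Among the induced genes 5 of 14 tested passed (35.7%, beside 15.0% of all genes), 2 higher and 3 lower, and the median log2 fold change was -0.13. Gbp8 is among the 5 and reached the test only through the libraries with Dox, where it was high. The count of 5 fell to 2 without the variance trend or without the filter, and to 1 with the replicate block. Isg15, a ubiquitin-like protein that is conjugated to other proteins after interferon, had the lowest adjusted p. It was at 60.1, 65.9 and 66.2 FPKM in the vehicle libraries and 48.3, 49.6 and 50.4 FPKM in the Dox libraries. The groups were well apart, and the mean went from 64.1 ± 3.43 to 49.4 ± 1.02 FPKM (SD, n = 3). The log2 fold change was -0.37 (SE 0.0510) with an adjusted p of 0.00414 in limma, and of 0.00334 to 0.0262 over the alternatives. Of the longest Isg15 transcript 63.8% is shared at 95% identity or more with another annotated gene, AC151275.1, so reads may have been split between them.

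Ifit2, which encodes an antiviral protein with tetratricopeptide repeats, was at 28.7, 25.8 and 31.1 FPKM in the vehicle libraries and 22.4, 23.2 and 22.7 FPKM in the Dox libraries. The libraries with Dox were all lower and close together, with a log2 fold change of -0.32 (SE 0.0758) and an adjusted p of 0.0322 in limma, and a range of 0.0186 to 0.0976 over the alternatives. It is the gene whose 3′ UTR match to the miR-200c seed is shown above. Ifit3, its neighbour, did not overlap between the groups either, at 1.36 to 1.86 FPKM without Dox and 0.762 to 1.18 FPKM with Dox, but its adjusted p was 0.203, and 97.4% of its transcript is shared with Ifit3b. Ifit1 was under the filter, at 0.217 to 0.378 FPKM without Dox and 0.140 to 0.223 FPKM with Dox.

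Irgm1, a GTPase that regulates autophagy and resistance to intracellular microbes, was at 28.3, 30.9 and 29.7 FPKM in the vehicle libraries and 24.7, 22.1 and 25.5 FPKM in the Dox libraries. All libraries with Dox were below those without, by a log2 fold change of -0.30 (SE 0.0698). In limma the adjusted p was 0.0309, with a range of 0.0260 to 0.0941 over the alternatives. Leaving out any of the 6 libraries ended this call.

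Bst2, which encodes tetherin, a membrane protein that holds budding viruses on the cell, was the most abundant of the 42 mRNAs and rose. It was at 74.6, 82.8 and 84.9 FPKM in the vehicle libraries and 108, 91.2 and 112 FPKM in the Dox libraries. The lowest library with Dox stood above the highest without. The mean went from 80.8 ± 5.43 to 104 ± 11.2 FPKM (SD, n = 3). The log2 fold change was 0.36 (SE 0.0873) and the adjusted p 0.0350 in limma, with a range of 0.0145 to 0.136 over the alternatives. Isg15 and Bst2, both with overlapping ISRE cores in the promoters shown above, therefore moved in opposite directions.

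Gbp8, of the guanylate-binding proteins, had the largest fitted change among the 27. It was at 0.446, 0.242 and 0.384 FPKM in the vehicle libraries and 2.66, 1.43 and 1.14 FPKM in the Dox libraries. All libraries with Dox were higher, and their spread was wide. Gbp8 reached the mean of 1 FPKM, and so the test, only through these libraries. The log2 fold change was 1.96 (SE 0.460), or 3.88-fold on the log2(FPKM + 0.1) scale, which understates the change of low genes. The adjusted p was 0.0316 in limma and 0.0242 to 0.108 over the alternatives. Gbp8 overlaps Gbp9 and Gbp4 on the same strand and shares 7.81% of its longest transcript with Gbp4.

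The other guanylate-binding and related GTPases did not pass, Irgm1 aside. Gbp2, Gbp3 and Igtp had log2 fold changes of -0.24, -0.57 and -0.10, none past the threshold, and with overlapping groups. Gbp7, under the filter, was at 0.984 to 1.40 FPKM without Dox and 0.584 to 0.913 FPKM with Dox, with an adjusted p of 0.257.

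**Figure D3:**
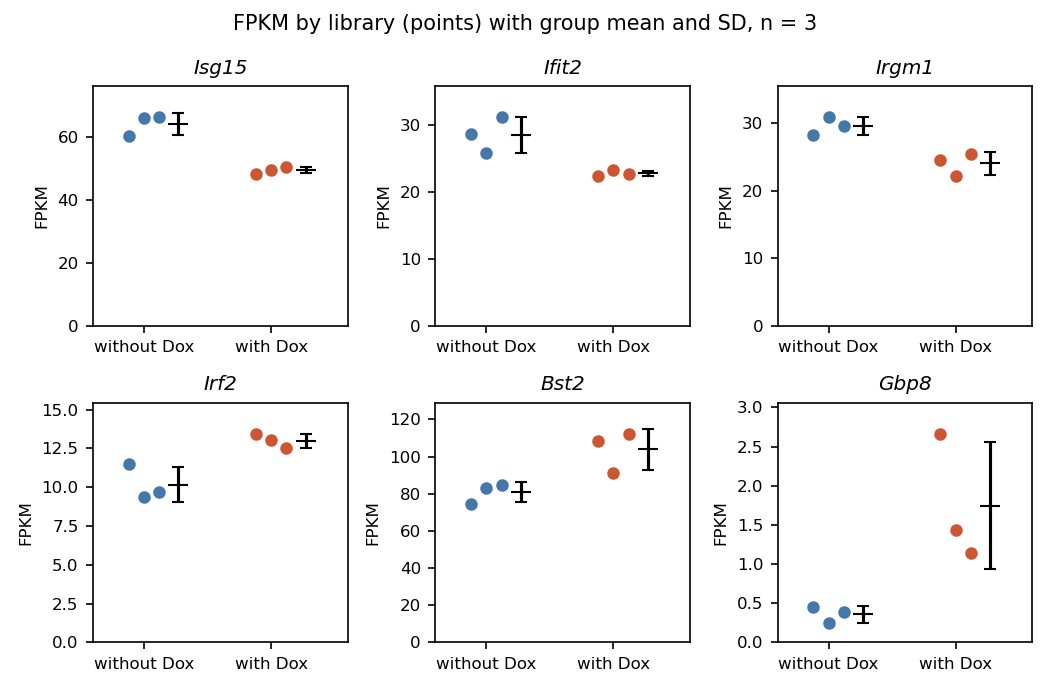
FPKM of the 6 genes that passed an adjusted p of 0.05, by library, with each panel's axis starting at 0. Points are libraries in order of replicate number, and the bars beside them show the mean and SD (n = 3); in all 6 genes the groups do not overlap, and the spread with Dox is widest for Gbp8.

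The tested sensors of viral RNA, Ddx58, Dhx58 and Eif2ak2, did not pass. Ddx58, which encodes the RNA sensor RIG-I, was at 26.6 to 29.2 FPKM without Dox and at 23.7 to 26.5 FPKM with Dox, with a log2 fold change of -0.15 (adjusted p of 0.177 in limma). Eif2ak2, the kinase PKR that stops translation on double-stranded RNA, was at 21.8 to 22.9 FPKM without Dox and at 23.6 to 26.4 FPKM with Dox, with a log2 fold change of 0.14 (adjusted p of 0.180 in limma). In both the groups did not overlap. Trim25, the ubiquitin ligase that activates RIG-I, and Ifi35 had log2 fold changes of 0.11 and 0.02. Dhx58, the sensor LGP2, was at 3.53 FPKM in 1 library with Dox and at 1.13 to 1.76 FPKM in the other 5, and its log2 fold change of 0.34 had a 95% interval from -0.67 to 1.34. Ifih1, the sensor MDA5, and Parp14 were under the filter, with means of 0.922 and 0.785 FPKM.

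Cxcl10, the chemokine that draws T cells, was low. The study reported more of its protein in conditioned medium of these cells with Dox. It also reported more Cxcl10 mRNA by qRT-PCR in Met-1 cells transfected with a miR-200c mimic, while the rise in tumours was not significant. These were measured at later times and by other methods than the libraries here. In the libraries, Cxcl10 differed as follows. It was at 0.527, 0.708 and 1.73 FPKM in the vehicle libraries and 0.638, 1.06 and 0.476 FPKM in the Dox libraries. The groups overlapped, the mean of 0.857 FPKM was under the filter, and the model without the filter gave a log2 fold change of -0.30 with a 95% interval from -1.54 to 0.94 (adjusted p of 0.775 in limma). Its direction turned when the third library without Dox was left out. Changes within this interval are not excluded, and the smallest change that could have been detected was not computed.

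None of the 14 genes that could be fitted only without the filter passed, and 1 had an unadjusted p under 0.05. This was Mx2, at 0.0698, 0.522 and 0.411 FPKM without Dox and listed at 0 in all 3 libraries with Dox. With these zeros its adjusted p of 0.0843 in limma rests on the pseudocount, and over the alternatives it ranged from 0.0124 to 0.293. Mx2 shares 34.0% of its transcript with Mx1. Usp18, the protease that removes ISG15 from proteins, had means of 0.314 and 0.168 FPKM without and with Dox, with overlapping groups. Oas2 was at 0 in every library, and the other 4 OAS genes overlapped between the groups.

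Of the 14 tested induced genes 12 had a listed promoter. The 9 with an ISRE core had a median log2 fold change of -0.24, with 7 negative and 2 positive values, and 2 passed lower and 1 higher. The 3 without a core, Ifit2, Ifi35 and Trim25, had a median of 0.02, with 1 passing lower. With 3 genes in 1 of the groups these are descriptions and were not tested against each other.

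Of 131 interferon pathway genes outside the list of 43, 127 were matched and 68 tested. Of these 11 passed (16.2%), a share near the 15.0% of all genes, 6 higher and 5 lower, with a median log2 fold change of -0.03. Among regulators 3 of 22 passed. Ptpn2, a phosphatase that acts on JAK kinases and STAT proteins, was higher by 0.26 in log2. Socs3, a feedback inhibitor of cytokine receptors, went from 29.8, 31.1 and 31.5 FPKM without Dox to 22.2, 21.9 and 22.6 FPKM with Dox, and Irf2bp2, a corepressor that binds IRF2, went from 53.2, 55.6 and 53.8 FPKM to 40.2, 39.0 and 42.9 FPKM. Their log2 fold changes were -0.47 and -0.41.

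Among the other induced genes 8 of 46 passed (17.4%), also near the 15.0% of all genes. Isg20, an antiviral exonuclease, was higher, at 47.1, 40.9 and 51.3 FPKM in the vehicle libraries and 80.9, 83.6 and 73.0 FPKM in the Dox libraries, a log2 fold change of 0.77. Ifi30, a lysosomal thiol reductase of antigen processing, was higher by 0.58, Psme1, an activator of the proteasome, by 0.25, Samhd1, which depletes nucleotides, by 0.24, and Rnf213, a large ubiquitin ligase, by 0.17. Phf11d was lower, at 8.05, 6.99 and 7.71 FPKM in the vehicle libraries and 3.59, 3.62 and 2.20 FPKM in the Dox libraries, a log2 fold change of -1.28. Rtp4 had a log2 fold change of -0.86 and Ifi27 of -0.54.

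**Figure D4:**
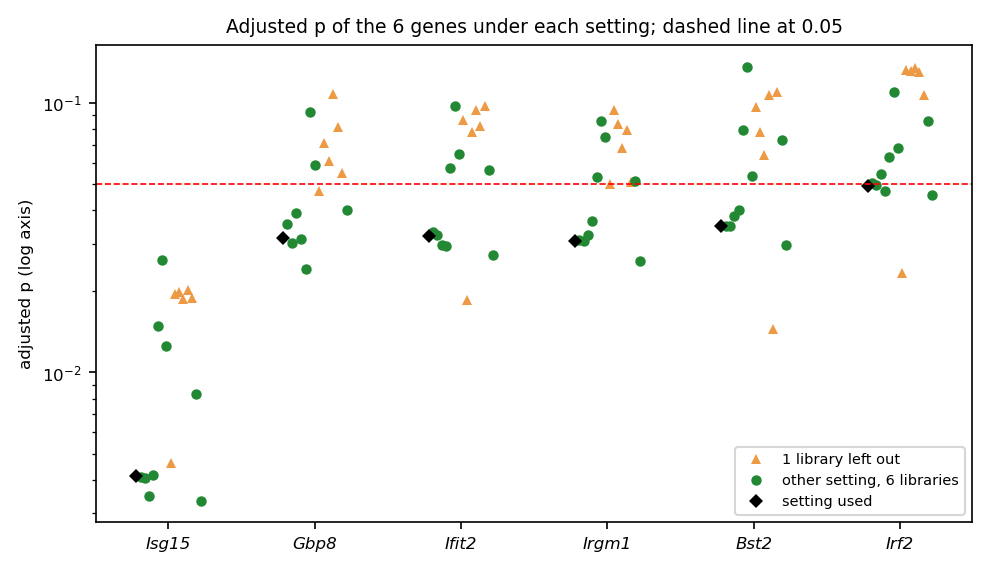
Adjusted p (log axis) of the 6 genes that passed, under the setting used (black), under other settings with all 6 libraries (green) and with 1 library left out (orange), with the dashed line at 0.05. Isg15 stays under the line in every setting drawn, between 0.00334 and 0.0262, while the other 5 genes cross it.

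The number of calls depended on the model. With limma without a trend of the variance on the level, or with every gene above 0 tested, 2 of the members passed, Gbp8 and Isg15, and with 1 unmoderated linear model per gene Isg15 alone passed. A minimum change of 1.5-fold left Gbp8 alone.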

How the data were processed

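mRNA of Met-1 TripZ-200c cells, 3 libraries without and 3 with Dox for 48 h, was made into stranded libraries and read as single short reads. The authors mapped the reads with gSNAP and deposited FPKM estimated with Cufflinks per gene and library; versions are not given in the sources used here, and the submitters' notes name GRCm38.p6. The methods also name an FVB/NJ assembly, and which assembly the values rest on was not settled here, so the GRCm38.p6 sequences printed may differ from those of this strain. FPKM is already divided by depth and length. The deposited fold, p and q columns are the authors' own comparison and were not used. 0 columns of per-sample values were left unused. Groups were taken from the labels.

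Of 43611 rows, 63 repeats were dropped, keeping the highest mean. 6 placeholder values in 4 genes were treated as missing. The 12879 genes averaging 1 FPKM or more were fitted with limma 3.58.1 (R 4.3.3) on log2(FPKM + 0.1), with group as the only term, a variance trend and Benjamini-Hochberg adjustment. Members under the filter came from the same model without it (20513 genes). The model was first tested on simulated data. Sequences are RefSeq promoters and miRNAs and GENCODE 3′ UTRs of GRCm38.p6, and shared transcript sequence was measured with BLAST at 95% identity over at least 50 bases. Plots were drawn with Python 3.11.15 and matplotlib 3.10.9.

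The members and lists were chosen with earlier results of these data known. Every member was accounted for, and values per library were given for members that passed, for the most abundant member of each role and for Cxcl10. Those of other genes, such as Irf7, Mx2 and Dhx58, were added after their values were seen. Alternatives were a pseudocount of 1 or 0.01, no filter or a mean of 5 FPKM, quantile or median scaling, no trend, an unmoderated linear model on log2(FPKM + 1), the replicate block, a 1.5-fold minimum, and each library left out in turn.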

Additional observations from a re-analysis of the deposited data

How the results depend on the processing

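The number of members that passed, 6, fell to 2 without the variance trend and without the filter, and to 1 with the unmoderated linear model, the replicate block and the 1.5-fold minimum. Members higher, 3, fell to 1 without the trend, without the filter and with the 1.5-fold minimum, and to 0 with the unmoderated model and the block. Members lower, 3, fell to 1 in the first 4 of these settings and to 0 with the 1.5-fold minimum. The 1 receptor, kinase or factor fell to 0 in all 5. The 5 induced genes fell to 2 without the trend or the filter and to 1 in the other settings. The 11 other pathway genes fell to 3 with the 1.5-fold minimum. The median log2 fold change of receptors, kinases and factors was 0.12 without the filter and 0.14 at a mean of 5 FPKM, and that of induced genes -0.064 at a mean of 5 FPKM. With 1 library left out, 1 to 3 members passed, 0 to 2 higher and 1 to 2 lower, 0 to 1 receptor, kinase or factor, 1 to 2 induced genes and 8 to 10 other pathway genes, and the medians ranged from 0.016 to 0.12 and from -0.16 to -0.079. Fewer samples reach the model in these fits, and for the other settings the cause was not tested.

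Over 41 fitted members 9 changed direction, each when 1 library was left out, and none of the 6 that passed did. Their log2 fold changes then ranged from -0.62 to 0.15 for Cxcl10, -0.13 to 0.57 for Dhx58, -0.058 to 0.092 for Ifi35, -0.24 to 0.090 for Ifih1, -0.062 to 0.0002 for Jak2, -0.32 to 0.21 for Mx1, -0.12 to 0.14 for Oas3, -0.51 to 0.23 for Oasl1 and -0.042 to 0.18 for Parp14. Mx1 and Oas3 were listed at 0 in 4 of the 6 libraries, so their fitted values rest on the pseudocount and are no folds. Pseudocounts and both scalings kept the count of 6, with Irf7 in place of Irf2 at a pseudocount of 1 and after quantile normalization.

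The labels give both groups the replicate numbers 1 to 3 and do not say whether libraries of the same number were paired. Deviations from the group means correlated at 0.03, 0.04 and -0.01 for libraries of the same number and between -0.05 and 0.02 for the others. No strong shared effect of the number was seen, but so few libraries cannot exclude pairing. With the replicate block 1 member passed, Isg15 (adjusted p = 0.0125). FPKM gives no read numbers, so the precision of genes under 1 FPKM is unknown.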
